A study of Mus musculus with 6 samples.

Results

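On a mouse mRNA and lncRNA array read with sperm RNA, 165 of 60641 probes gave a signal well above background in the supernatant RNA of all 6 sperm samples and in the antibody-bound RNA of none. The members were chosen by the detection flags of the scanner software, which marks each spot as well above background or not in each channel. Every name begins with ASMM10, as the rule required, and every member has 1 spot per array. The number of members, their detection and the gap between their 2 channels are therefore descriptions of what the flags selected, and no test was made on them.

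N6-methyladenosine (m6A) is a methyl mark on adenosines inside RNA, written by a methyltransferase complex built around METTL3 and removed by the demethylases FTO and ALKBH5. An anti-m6A antibody pulls down RNA that carries the mark, so that the bound fraction (IP) holds methylated RNA and the fraction left in the supernatant (Sup) holds RNA the antibody did not retain. Mature sperm are largely silent in transcription and carry RNA left over from spermatogenesis.

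Sperm came from C57BL/6N males kept on normal chow (NC, 3 samples) or on a diet with 60% fat (HFD, 3 samples) between 5 and 15 weeks of age, and the samples of the replicate experiments came from different donors. The sperm were epididymal and had passed a lysis step against somatic cells, and the labels give an age of 10 weeks where the methods give the age at the end of the diet. How many males gave one sample is not stated, so p-values measure the spread between these samples. In such bulk samples, fewer sperm and less RNA per sperm cannot be told apart. On each array the IP RNA was labelled with Cy5 and the Sup RNA with Cy3, with no dye swap, so that a dye effect and the difference between the fractions cannot be told apart. Detection over the ASMM10 probes ranged from 35.2% to 50.3% of probes in Sup and from 28.3% to 55.0% in IP, lowest on NC 1 and highest on HFD 3 in both channels. HFD 3 also carries another scan time than the other 5 arrays. The files pair these probe names with no gene, transcript or RNA class, so the probes are described by name and signal, and their genes and sequences are not analysed here.

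The 165 probes made up a small part of what Sup contained. Sup was well above background on all 6 arrays for 20139 probes, and 15249 of these were also detected in IP on all 6 arrays. In the opposite direction, 163 probes were detected in IP on all 6 arrays and in Sup on none. Neither fraction was detected on any array for 24525 probes.

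The members were dim in Sup. Their median processed Sup intensity, which the scanner software had corrected for background and balanced between the dyes, was 229 on NC 1, 307 on NC 2, 360 on NC 3, 322 on HFD 1, 288 on HFD 2 and 417 on HFD 3. The probes detected in both fractions on all arrays had medians between 1017 and 1956. Both sets were lowest on NC 1 and highest on HFD 3, and the members' NC and HFD values overlapped. Among the 20139 probes detected in Sup on all arrays, ordered by their mean Sup level, the dimmest quartile held 128 members (77.6% of them), the next quartile 32, the third 5 and the brightest none. The quartile of dimmest probes holds members at a rate of 2.54% and the next at 0.636%.

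The brightest members were ASMM10SM1100025197 and ASMM10SM1100048525. Intensities scaled by spike-in RNA, a set of foreign RNAs read by the ASSPINKEIN probes, are used from here on for values compared between arrays. ASMM10SM1100025197 read 1291, 1473 and 1567 in NC 1 to NC 3, and 1361, 1562 and 2800 in HFD 1 to HFD 3. HFD 3 stood far above the other 5 samples, which lay close together. ASMM10SM1100048525 read 1781, 1247 and 1346 in NC and 1371, 1537 and 1050 in HFD, and its groups overlapped. The IP signal of ASMM10SM1100025197 was 1.06 to 1.57 times its local background, and that of ASMM10SM1100048525 was 1.29 to 1.67 times.

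At the dim end, ASMM10EP3A100840221 read 259, 161 and 121 in NC and 154, 156 and 173 in HFD. ASMM10EP3A105302991 read 285, 178 and 171 in NC and 116, 167 and 207 in HFD. For both probes NC 1 was the highest sample and the groups overlapped. The lowest scaled Sup value that the software still marked as detected was 220 on NC 1, 146 on NC 2, 111 on NC 3, 109 on HFD 1, 143 on HFD 2 and 74.8 on HFD 3, so the rule set its highest floor on NC 1. On NC 1, 31.5% of the members lay within 1.5-fold of that floor, against 27.3% on NC 2, 20.0% on HFD 2, 7.27% on HFD 1, 3.03% on NC 3 and 0% on HFD 3.

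The IP channel of the members was low but not empty. The median spot signal divided by the median of its local background was, at the median over members, 1.5, 1.5 and 1.47 in the NC samples, and 1.31, 1.31 and 1.41 in the HFD samples. The same ratio in Sup lay between 3.27 and 3.92, against 1.40 to 2.04 for the negative controls. The 308 negative control spots, which match no RNA, gave IP ratios of 1.36, 1.23 and 1.20 in the NC samples, and 1.12, 1.12 and 1.03 in the HFD samples. The NC and HFD arrays therefore did not overlap in the ratio of the members, and the negative controls moved the same way. The part of the negative controls in that difference was not tested.

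After the background correction of the software, which also removes a spatial trend, the median IP signal of the members was 0.711, 1.96 and 2.54 in the NC samples, and 1.76, 2.11 and 5.31 in the HFD samples. The negative controls lay between -1.60 and -1.19 on the 6 arrays. The members lay above the negative controls on every array, most on HFD 3, and here the groups overlapped. The corresponding Sup medians of the members were 13.4, 17.6 and 21.9 in NC and 21.7, 16.7 and 29.1 in HFD.

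A weaker flag of the same software, which marks a spot as positive and significant against background, was set in IP for 25.5%, 51.5% and 64.8% of the members on NC 1 to NC 3. It was set for 49.7%, 57.0% and 89.1% on HFD 1 to HFD 3, against 2.60% to 4.55% of the negative control spots. By this flag 11 members were positive in IP on all 6 arrays, 8 were positive on none, and the other members lay between. The absence of IP detection thus holds for the stricter flag. By signal minus local background, 109 (NC 1) to 162 (HFD 3) of the members lay above the median negative control in IP. Above the 95th percentile of the negative controls lay 22 members (13.3%) on NC 1, 74 on NC 2, 98 on NC 3, 76 on HFD 1, 63 on HFD 2 and 144 (87.3%) on HFD 3. When both channels were judged by the weaker flag, 74 probes were positive in Sup on all arrays and in IP on none.

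Because an IP signal below the detection floor gives only a limit, the excess of Sup over IP was computed as a lower bound, with the lowest detected IP signal of each array standing in where the own value of the probe was below it. After loess within arrays and Aquantile normalization between arrays, the excess of Sup over IP was at least 2.55-fold for the median member. Loess removes the difference between the channels that probes of like brightness share, so this excess is relative to those probes. The bound ran from 1.35-fold for ASMM10EP3A100840221 to 13.2-fold for ASMM10SM1100025197, and it was above 2-fold for 126 of the 165 members. For the median member the bound was 2.03-fold over the NC arrays and 3.31-fold over the HFD arrays, and 2.16-fold over the arrays without HFD 3. On the spike-in scale the bounds were 3.13-fold over the NC arrays and 3.90-fold over the HFD arrays, and 158 members in place of 86 were above 2-fold over the NC arrays. The detection floor enters these values directly, and dye bias enters them too, since the dyes were not swapped.

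The probe names fall into 3 series, ASMM10EP3A, ASMM10EP3B and ASMM10SM1, whose meaning the files do not give. Of the members, 103 (62.4%) were ASMM10EP3A, 11 (6.67%) ASMM10EP3B and 51 (30.9%) ASMM10SM1. Among all ASMM10 probes these shares were 79.2%, 14.0% and 6.74%, and among the probes detected in Sup on all arrays they were 83.6%, 10.7% and 5.70%. The SM1 series was thus a larger part of the members than of either wider set. Of the 163 probes detected in IP alone, 1 (0.613%) belonged to this series.

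Read per series, 51 of the 1147 SM1 probes detected in Sup on all arrays were members (4.45%), against 103 of 16839 EP3A probes (0.612%) and 11 of 2153 EP3B probes (0.511%). The SM1 share was higher in each brightness quartile that held members. In the dimmest quartile 17.0% of 194 SM1 probes were members, against 1.99% of 4277 EP3A and 1.77% of 564 EP3B probes. In the next quartile these shares were 4.87%, 0.427% and 0.180%, and in the third they were 1.35% (5 probes), 0% and 0%. Across the SM1 probes detected in Sup on all arrays, 55.7% were detected in IP on all arrays as well, against 77.1% for EP3A and 75.9% for EP3B. Their median background-corrected IP signal over probes and arrays was 25.4, against 65.8 and 58.4.

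SM1 probes were the brighter ones in Sup, among the members as among the wider sets. Their median processed Sup intensity was 274, 399 and 449 in the NC samples, and 344, 387 and 551 in the HFD samples. The EP3A members read 225, 276 and 352 in NC and 305, 273 and 385 in HFD. The 11 EP3B members read 208, 332 and 272 in NC and 323, 329 and 409 in HFD. The SM1 median was the highest of the 3 on every array. Among all probes detected in Sup on every array, the SM1 medians ran from 814 to 1798 and the EP3A medians from 657 to 1267, so the order is not particular to the members. The selection used these signals, so the order is a description.

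Members were spread over the array surface. They lay between rows 5 and 383 of 384 and between columns 3 and 164 of 164, with 42, 38, 47 and 38 members in the successive quartiles of rows. The median local IP background around the members, 14.0 to 16.0 pixel units, was within 1 unit of that around all ASMM10 probes on every array. None of their spots was marked as saturated or non-uniform in either channel.

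Which probes met the rule turned on 2 arrays. Beyond the 165 members, 399 probes were detected in Sup on all arrays and in IP on exactly 1 array, and for 378 of these (94.7%) that array was HFD 3. Another 193 probes were undetected in IP throughout and missed in Sup on exactly 1 array, which was NC 1 for 140 of them (72.5%). Without HFD 3 the rule gave 543 probes, and without NC 1 it gave 305. HFD 3 was the array with the highest detection and the separate scan, and NC 1 the one with the lowest detection.

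The IP flag follows a floor on the background-corrected signal of each array, which was lowest on HFD 3, at 7.71. Just inside it lay the members ASMM10EP3A118655560 and ASMM10EP3A123749753, both at 7.69 on HFD 3. Just outside it lay ASMM10EP3A107281492 at 7.71 and ASMM10SM1100081752 at 7.73 on the same array, which detected them. These 4 probes were chosen after the values were seen. By another measure, the ratio to local background, the highest members were ASMM10EP3A105949914 at 2.08 on NC 3 and ASMM10EP3A105186289 at 2.07 on NC 2, with corrected signals of 7.82 and 5.19 under floors of 8.64 and 8.96. The lowest ratios at which a probe missed the rule by 1 IP detection were 1.33 for ASMM10EP3B101617051 and 1.35 for ASMM10EP3A120825113, both on HFD 3, with corrected signals of 8.86 and 8.20. These last 4 were picked for their ratios, so the order of the ratios among them is set by the choice.

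Applied to the 3 NC arrays alone, the same rule gave 807 probes. Of these, 728 (90.2%) were again detected in Sup on all 3 HFD arrays, but 206 (25.5%) were undetected in IP on all 3, and 165 (20.4%) met both parts. The probes detected in both fractions on all 3 HFD arrays numbered 50 (6.20%). Applied to the 3 HFD arrays alone, the rule gave 525 probes, of which 481 (91.6%) were undetected in IP on all NC arrays and 183 (34.9%) were detected in Sup on all NC arrays. The SM1 series made up 20.4% of the NC selection and 21.3% of the HFD selection. HFD 3 and NC 1 bear on these shares as they do on the rule itself, and a diet difference in them was not tested.

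The design sets HFD against NC, and for the members this was done on the Sup signal, which measures the RNA not bound by the antibody and not the whole level of an RNA. On the spike-in scale, the members leaned towards lower Sup signal in HFD, where the median over all tested probes was slightly above 0. With no scaling the members' median was above 0 as well. Of the 165 members, 104 (63.0%) had a negative HFD minus NC difference, against 41.4% of the 26386 probes tested. The median difference of the members was -0.13 on the log2 scale, with the middle of the members between -0.39 and 0.10, and the median over all tested probes was 0.07. Per array, the median scaled Sup intensity of the members was 368, 287 and 325 in NC and 294, 309 and 314 in HFD. NC 1 was the highest sample, and NC 2 lay below the 3 HFD samples, so the groups overlapped.

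With no scaling between arrays the median difference over all tested probes went from 0.07 to 0.37 and that of the members from -0.13 to 0.17, so the members lay 0.20 below all tested probes on either scale. The median over all tested probes was -0.06 without background correction, -0.08 with normexp and -0.0024 after quantile normalization, where the members lay at -0.20, -0.17 and -0.17. With no filter on dim probes it was -0.21, and the members, at -0.13, lay 0.08 above it. Without NC 1 the median of the members was -0.02, and 0.14 over all probes tested. NC 1 is the array on which the rule set its highest floor, so a member needed a higher scaled value there than on the other arrays. The part of this selection in the lean was not tested.

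By the thresholds of the study, a change of more than 1.5-fold with a p under 0.05 before adjustment in limma's test, 1 member was higher in HFD (0.606% of members, against 6.94% of all tested probes and 5.51% of the probes detected in both fractions). In the other direction, 10 members were lower in HFD (6.06%, against 2.77% and 1.98%). The rule read the same arrays, with its highest Sup floor on NC 1 and its lowest IP floor on HFD 3. The 2 wider sets were not chosen by this rule and were brighter in Sup. The part of the selection in these call shares was not tested. After Benjamini-Hochberg adjustment over all 26386 probes in limma, no member passed 0.05, with a lowest adjusted p of 0.21. At an unadjusted p under 0.05 in limma, in either direction, there were 16 members (9.70%). This was a smaller share than the 12.8% of all tested probes and the 10.9% of the probes detected in both fractions. For other settings the share of all tested probes at that p was not computed, so no count of members is given for them. An unmoderated test of each probe called 1 member higher and 1 lower (0.606% each), against 3.89% and 1.17% of all tested probes. The reference of 13 spike-in probes was settled after the counts from a reference of 14 had been seen. Those counts were 2 higher (1.21%) and 7 lower members (4.24%), against 7.24% and 2.50% of all tested probes. Higher calls were 71.5% of all calls over the tested probes, and 56.1% after median centring, 52.7% after quantile normalization and 96.9% with no scaling. With no filter on dim probes they were 39.3%, so that lower calls then outnumbered higher ones.

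The 10 lower calls depended on single arrays. Without NC 1 there were 1 lower (0.606% of members) and 4 higher calls (2.42%), against 1.55% and 8.02% of all tested probes. Without NC 2 there were 33 lower (20.0%) and 2 higher calls (1.21%), against 5.63% and 9.14%. Without HFD 1 there were 4 lower (2.42%) and 3 higher calls (1.82%), against 2.35% and 4.70%. In these 3 fits the share of lower calls moved the same way over all tested probes as over the members. Leaving out NC 3, HFD 2 or HFD 3 gave 10, 8 and 8 lower calls (6.06%, 4.85% and 4.85%, against 3.04%, 2.31% and 3.50% of all tested probes). The higher calls in these fits were 2, 2 and 3 (1.21%, 1.21% and 1.82%, against 6.43%, 4.77% and 10.8%). The lower calls held 1, 9 and 3 of the 10 without NC 1, NC 2 or HFD 1. They held 4, 6 and 5 of the 10 without NC 3, HFD 2 or HFD 3. Of the 10, 1 was called lower in all 6 of these fits, and the 10 had a negative difference in each of them. With no scaling 0 members were lower and 8 higher (4.85%), against 0.527% and 16.6% of all tested probes. On median signals without background correction 0 were called in either direction, against 0.902% lower and 3.20% higher of all tested probes.

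Counting only whether the samples overlap, all HFD values exceeded all NC values for 6 members (3.64%, against 12.3% of tested probes and 13.3% of the probes detected in both fractions). All HFD values were under all NC values for 16 members (9.70%, against 5.92% and 6.33%). The 1 higher call and 4 of the 10 lower calls were among them. The part of the selection by the rule in these shares was not tested either.

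By name series, 9 of the 103 EP3A members were lower (8.74%) and 1 was higher (0.971%), against 2.06% and 5.15% of the EP3A probes detected in Sup on all arrays. Of the 11 EP3B members 1 was lower and none higher, against 2.56% and 5.54% in that series. Of the 51 SM1 members none was called in limma's test in either direction, with 2 at an unadjusted p under 0.05 (3.92%, against 9.89% of the SM1 probes detected in Sup on all arrays). In those SM1 probes the call shares were 1.58% lower and 5.34% higher, so 0 lower calls of 51 is near the background of that series. The median difference was -0.13 in the EP3A, -0.23 in the EP3B and -0.10 in the SM1 members. A difference between the series was not tested.

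ASMM10EP3B104277603 fell most among the lower calls with separate groups. It read 428, 281 and 364 in NC and 175, 224 and 226 in HFD, with every HFD sample below every NC sample. The NC mean was 357 ± 73.7 and the HFD mean 209 ± 29.0 (SD, n = 3 each). The log2 difference was -0.77 ± 0.23 (standard error), and its Benjamini-Hochberg adjusted p in limma was 0.21. It kept its call without any one array, with differences between -0.93 and -0.63, and lost it with no scaling, at -0.47, without background correction, at -0.50, and with normexp, at -0.34. Its IP signal was 1.33 to 2 times its local background, and the weaker flag marked it as positive in IP on 5 arrays.

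ASMM10EP3A110205111 was next, at 667, 510 and 595 in NC and 256, 406 and 502 in HFD. The highest HFD sample, HFD 3, lay just under the lowest NC sample. The log2 difference was -0.65 ± 0.27 (standard error) with a Benjamini-Hochberg adjusted p in limma of 0.34, and without HFD 1 it was -0.38 and no longer called. The call was also lost without NC 1, at -0.56, and without NC 3, at -0.64. It was lost as well with no scaling, at -0.35, without background correction, at -0.50, and with normexp, at -0.34. With no filter and in the unmoderated test the difference was the same and the call was lost on the p.

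ASMM10EP3A119292429 was the member called higher in HFD. It read 368, 403 and 522 in NC and 855, 575 and 639 in HFD, with every HFD sample above every NC sample and HFD 1 the highest. The NC mean was 431 ± 80.7 and the HFD mean 689 ± 147 (SD, n = 3 each). The log2 difference was 0.67 ± 0.24 (standard error), and its Benjamini-Hochberg adjusted p in limma was 0.27. Without NC 1 the difference was 0.57 and without HFD 1 it was 0.51, and in both cases the probe was no longer called. The call was also lost without background correction, at 0.34, with normexp, at 0.19, and with no filter, on the p alone. Its IP signal stayed between 1.16 and 1.77 times its local background.

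The members varied between samples of one diet more than the other probes did. The median SD between arrays of a group was 0.36 on the log2 scale over the members, against 0.28 over all tested probes and 0.25 over the probes detected in both fractions. The median standard error of the HFD minus NC difference was 0.26 for the members and 0.24 for all tested probes.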

How the data were processed

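Sperm RNA of 3 NC and 3 HFD samples was read on one 2-color array each. The authors deposited scanner output of Feature Extraction 11.0.1.1 (Agilent), as the submitters' processing notes name it. The processed intensity deposited by the authors was background-corrected and dye-normalized within each array, and the median spot and local background intensities were not. The deposited 0 or 1 flags mark spots well above background (other values, such as mean spot signals, were not used here). The title was taken for NC 3, 1 of whose other labels names C2.

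From these files, processed Sup intensities were floored at 1, converted to log2 and reduced by the array mean of the 13 of 102 spike-in probes whose every spot was detected in IP and in Sup on each of the 6 arrays. The plan did not say how a spike-in probe with several spots counts as well above background. A first run took probes with a mean flag of at least 0.5 (14 probes). After its counts were seen, this was replaced by the reading that needs every spot, and the first reading is kept as an alternative. Printed scaled intensities are put back on the mean spike-in level. Spots flagged non-uniform were set to missing. Probes well above background in Sup on at least 3 arrays were tested, 26386 in all, so every member was tested. HFD was compared with NC in limma 3.58.1 (R 4.3.3, lmFit and eBayes) with no replicate block, p-values were adjusted over all tested probes by Benjamini-Hochberg, and the functions were tested on simulated data. The members and the rule for them were chosen with earlier results of these data known. Named were up to 2 members per direction with the largest change among calls with separate groups, the 2 brightest and dimmest, and the 2 members with the highest ratio of IP signal to local background and the 2 probes with 1 IP detection at the lowest ratio. The flag does not cut on that ratio, so the 2 probes nearest the IP floor on either side were added after the values were seen. Alternatives covered scaling, background, filter, test, flags and each array left out. Gene names, sequences and marker lists of sperm and somatic cells were not analysed here. Precision is limited by how many arrays there are.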

Additional observations from a re-analysis of the deposited data

How the results depend on the processing

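Where a value moved, the cause was not tested. The 10 lower and 1 higher calls among the members and the 1831 higher and 731 lower calls among all tested probes were the base. The reference of 14 spike-in probes was run first and replaced after its counts were seen. It gave 2 higher (1.21%) and 7 lower members (4.24%), against 1910 higher (7.24%) and 659 lower (2.50%) of all tested probes. The 7 lower members were among the 10. The median difference was -0.11 over the members and 0.09 over all tested probes, where 74.3% of the calls were higher. With no scaling there were 0 lower and 8 higher members, 4393 higher and 139 lower probes, and a median member difference of 0.17 in place of -0.13. No background correction gave 0 and 0 members, 844 higher and 238 lower probes, and normexp on median signals 0 and 0 members, 672 and 87 probes. Median centring and quantile normalization each gave 15 lower members (9.09%), against 3.72% and 4.02% of all tested probes. Each gave 1 higher member (0.606%), against 4.74% and 4.48%, and quantile normalization gave 1181 higher probes. Without a filter there were 0 higher and 1 lower members (0.606%), against 1545 higher (2.55%) and 2387 lower probes (3.94%). Lower calls then became the more frequent. With Sup detected on all 6 arrays there were 2 higher (1.21%) and 13 lower members (7.88%), against 1125 higher (5.60%) and 478 lower probes (2.38%). With either channel detected on 3 arrays there were 1 higher (0.606%) and 5 lower members (3.03%), against 6.40% and 3.10% of all tested probes. The lower share of the members was then close to that of all tested probes. The unmoderated test gave 1 lower member, 1027 higher and 309 lower probes. At an adjusted p under 0.05 in limma, 0 members in either direction, 0 higher and 1 lower probes passed. Regardless of fold, 1 of 26386 probes passed, and 251 of 20089 with Sup detected on all 6 arrays. Without NC 2 it was 212 of 26258. Of 26386 it was 156 with the replicate block, 236 with no scaling, 715 without background correction and 880 with normexp. Each had 0 members, and whether that is below these shares was not tested. At an unadjusted p under 0.05 were 16 members (9.70%, against 12.8% of tested probes).

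With the replicate block there were 2 higher (1.21%) and 10 lower members (6.06%), against 7.69% and 3.21% of all tested probes. Of these 10, 9 were lower in the main fit. Whether same-numbered NC and HFD samples belong together is not stated. The correlations of same-numbered deviations over all tested probes were -0.15, 0.17 and -0.08. With 3 samples per group these correlations cannot settle it.

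Across the fits that each left out an array, higher members went from 2 to 4 and lower members from 1 (without NC 1) to 33 (without NC 2). Higher probes went from 1232 to 2823 (without HFD 3) and lower probes from 406 (without NC 1) to 1479 (without NC 2), and the median member difference from -0.25 to -0.02. The number of members went from 173 (without HFD 1) to 543 (without HFD 3). It was 74 with the positive-and-significant flag, and, chosen after seeing the data, 807 on the NC and 525 on the HFD arrays alone. The median IP signal of the members minus local background was 6.42 pixel units (6.10 to 6.70 with an array left out), and 38.1 as processed intensity, which is on another scale. The lower bound of Sup over IP was 2.55-fold, 3.47-fold on the spike-in scale, and 2.16-fold to 3.06-fold with an array left out.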
